A study of Mus musculus with 20 samples.

Results

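The genes described here are 9 regulators of the muscle lineage: the basic helix-loop-helix myogenic factors Myod1, Myog, Myf5 and Myf6, the satellite cell factor Pax7, the MEF2 factors Mef2a, Mef2c and Mef2d, and the inhibitor Id1. They were chosen by name, as the rows of the deposited gene count table whose Ensembl identifiers map to these symbols. All 9 had a row, of 55416 genes listed, and all 9 passed the filter on low counts that left 14471 genes for testing.

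The counts came from RNA-seq of the injected quadriceps of 20 old mice, 10 given saline and 10 given a stem cell secretome. All mice were wild-type (WT) males of the C57BL/6J strain, 26 to 28 months old, so old age and the injection itself were common to both groups. The control group received a single intramuscular injection of 50 µL of saline (0.9%), and the secretome group received 50 µL of a cell-free product made from medium conditioned by partially differentiated human pluripotent stem cells. Muscle was taken 3 h after the injection, from mice fasted for 4 h. The comparison asks how the transcripts of this muscle differ between the treatments within hours of 1 dose.

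Satellite cells are the resident stem cells of skeletal muscle, lie against the fibre under its basal lamina, and are marked by Pax7. When they are activated they express Myf5 and Myod1, divide, and then switch on Myog as they commit to differentiation, while Myf6 is kept on in the nuclei of mature fibres. MEF2 proteins bind promoters of muscle genes and act together with the myogenic factors, whereas Id1 binds the E protein partners that the myogenic factors need to hold DNA.

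Libraries held 13286983 to 22987237 counts on genes (median 18011570), and their numbers, 1 to 20, fell into 3 ranges that differed in composition. Ttn, the gene of the giant sarcomere protein titin, took 7.02 to 11.03% of counts in libraries 1 to 5 (all control), 16.4 to 21.1% in libraries 6 to 15 (5 of each treatment) and 14.2 to 14.7% in libraries 16 to 20 (all secretome). Library number followed treatment throughout, since libraries 6 to 10 were control and 11 to 15 secretome, and their effects cannot be told apart. In libraries 6 to 15, however, the Ttn share was alike in both groups, 16.4 to 21.1% in control and 17.8 to 20.7% in secretome muscles. The differences of the 9 genes and the counts of the gene lists are therefore also given within those 10 muscles. The tissue label was checked against 14 muscle fibre markers. Acta1, Ckm and Myh4 had at least 238355, 216327 and 288685 counts in every muscle, whereas the lowest count of Myh7 was 0. The summed level of the 14 markers was 170997 to 411974 CPM in control muscles and 271356 to 392095 CPM in secretome muscles. Much of this sum was Ttn, with means of 143115 CPM in control and 176733 CPM in secretome muscles. CPM are counts scaled to the size of the library, corrected for composition by the trimmed mean of M values (TMM).

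Promoter windows of RefSeq (GRCm38.p6, from 250 bases before the start site to 50 bases after it) were found for 6 of the 9 genes, in 8 windows. Myod1, Myf6 and Id1 had no entry. Each window was searched on both strands for the E-box CANNTG, the site of the basic helix-loop-helix factors. It was also searched for CTANNNNTA, a loose form of the core of a MEF2 site, here called a MEF2 core. The middle bases of such a site are A or T, which the search did not require. The E-box was present in 72.3% and this loose MEF2 core in 21.0% of 32544 promoters of this length, so that an E-box is a common match. The promoter of Myog is shown because it held the most matches of the 8 windows, 2 E-boxes and 1 MEF2 core, and the start of Mef2a because its MEF2 core lies next to the start site. Capitals mark the matches.
Myog, chr1:134289754-134290003, plus strand: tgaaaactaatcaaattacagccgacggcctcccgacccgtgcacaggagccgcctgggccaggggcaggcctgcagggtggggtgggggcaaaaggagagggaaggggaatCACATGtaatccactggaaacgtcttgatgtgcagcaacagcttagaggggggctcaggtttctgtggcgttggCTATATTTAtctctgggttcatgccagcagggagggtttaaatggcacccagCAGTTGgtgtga
Mef2a, chr7:67372849-67372908, minus strand: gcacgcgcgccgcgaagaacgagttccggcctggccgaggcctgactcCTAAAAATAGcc

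In Myog the E-boxes CACATG and CAGTTG started 138 and 12 bases before the start site, and the MEF2 core CTATATTTA 64 bases before it. In Mef2a the run CTAAAAATAG holds a MEF2 core on each strand, overlapping by all but 1 base, and the core CTAAAAATA started 2 bases before the start site. Myf5 also held overlapping matches to the loose MEF2 core, 182 bases before its start, but CTAGGTTTA has G among its middle bases. Of the 3 windows of Mef2c, 1 held 2 E-boxes, 1 held 1 E-box and 1 MEF2 core, and 1 held neither. That MEF2 core, CTAACGATA, has C and G among its middle bases. No match to either motif was present in the windows of Pax7 and Mef2d. These matches describe the letters of the windows and do not show that a factor binds there.

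Levels of the genes were compared per kilobase of exon, with exon lengths from GENCODE M21. On this scale Myf6 was the most abundant in control muscles, at 103 ± 45.7 CPM per kb (SD, n = 10). It was followed by Mef2d at 43.8 ± 10.1, Mef2c at 33.7 ± 10.0, Myod1 at 19.3 ± 10.7 and Mef2a at 13.1 ± 3.54 CPM per kb. Id1 stood at 6.19 ± 1.96 and Myog at 3.58 ± 2.76 CPM per kb. The factors of satellite cells were the least abundant, Myf5 at 0.724 ± 0.300 and Pax7 at 0.333 ± 0.119 CPM per kb. Over all 20 muscles, neighbours in this order overlapped in their ranges, except Myog and Myf5, whose levels were 1.33 to 10.1 and 0.293 to 1.17 CPM per kb. Counts of the satellite cell factors were low. Myf5 had 11 to 43 counts and Pax7 19 to 63 counts in a muscle, and counting error alone gave them a coefficient of variation of 20.5% and 18.1%, against observed values of 33.3% and 34.8%. For the other 7 genes counting error gave 1.01 to 12.4%.

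**Figure D1:**
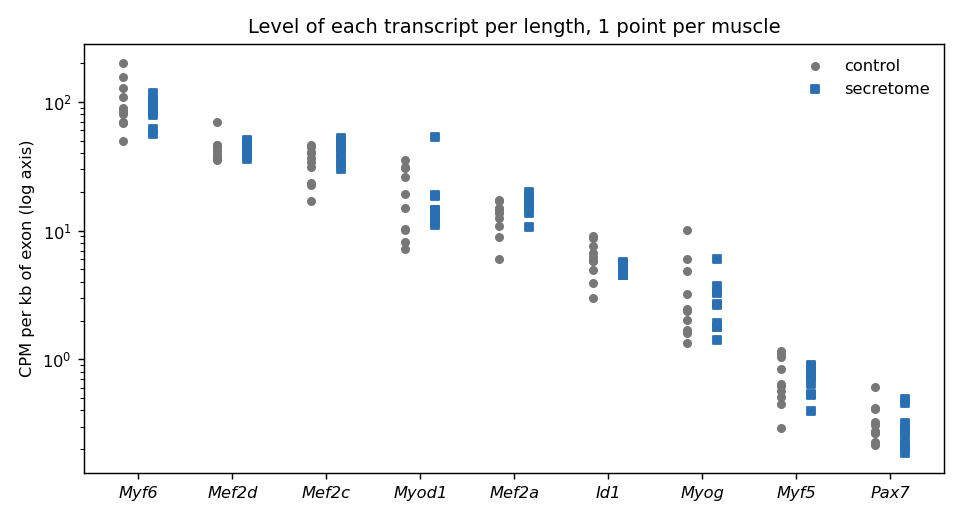
Level of each transcript per kilobase of exon (CPM per kb, log axis) in each of the 20 quadriceps muscles, with genes ordered by their control mean; grey circles are control and blue squares secretome muscles. Control means run from 103 CPM per kb for Myf6 to 0.333 CPM per kb for Pax7, and 1 secretome muscle stands above the other Myod1 points.

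None of the 9 genes differed between treatments past a 5% false discovery rate. This was so with edgeR's quasi-likelihood test, which called 1 of 14471 genes (0.00691%), and with DESeq2, which called 216 of 17310 (1.25%). At an unadjusted p under 0.05, edgeR called 1 of the 9 genes, Mef2c, against 15.7% of all genes tested. The fitted difference was positive for 2 genes (Mef2a and Mef2c) and negative for 7, against 6387 and 8084 of all genes tested. Its median over the 9 genes was -0.09 on the log2 scale, against -0.03 over all genes. Within libraries 6 to 15, where 6937 genes had positive and 7532 negative values, no gene of the whole table passed with edgeR (0 of 14469, 0%). Unadjusted p-values under 0.05 were obtained there for Mef2a and Id1, against 9.95% of all genes (5.02% with the secretome group higher, as for Mef2a, and 4.92% with it lower, as for Id1), and DESeq2 called 37 genes (0.239%) and none of the 9. Levels here come from whole muscle, in which fewer cells of a type and less RNA per cell cannot be told apart.

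**Figure D2:**
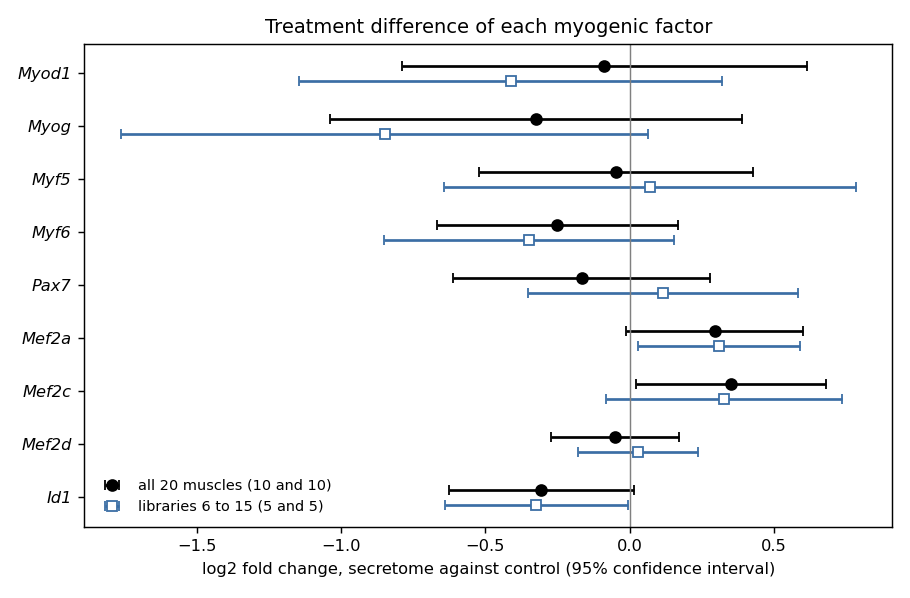
Difference between treatments for each gene (log2 fold change, secretome against control) with its 95% confidence interval, over all 20 muscles (black circles) and within libraries 6 to 15 (open blue squares). The interval lies above 0 for Mef2c over all muscles (0.02 to 0.68) and for Mef2a within libraries 6 to 15 (0.03 to 0.59), and below 0 for Id1 within libraries 6 to 15 (-0.64 to -0.01).

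Myod1, which can turn other cells to the muscle fate and marks activated satellite cells, had the widest intervals together with Myog. Its level was 13.5 CPM at the lowest, 32.01 CPM at the median and 66.3 CPM at the highest in control muscles, and 20.7, 26.3 and 98.5 CPM in secretome muscles. The groups overlapped, and 7 of 10 secretome muscles lay below the control median while 1 lay above every control. The means were 36.01 ± 19.9 and 33.8 ± 23.3 CPM (SD, n = 10 each), a log2 fold change of -0.09 ± 0.34 (SE), and the adjusted p of edgeR's quasi-likelihood test was 0.917 (Benjamini-Hochberg). Its 95% interval, -0.79 to 0.61, covers differences of either sign. Within libraries 6 to 15 the control muscles held 19.1, 36.1, 56.5, 48.6 and 15.3 CPM, and the secretome muscles 23.02, 35.1, 24.9, 27.0 and 20.7 CPM. Here the secretome muscles all lay between the lowest control and the control median, with a log2 fold change of -0.41 ± 0.33 (edgeR, adjusted p = 0.671), and -0.17 without control replicate 8.

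Myog, the factor of terminal differentiation, varied most between muscles, 7.64 times from lowest to highest. Control muscles held 1.98, 3.62 and 15.2 CPM (lowest, median and highest), and secretome muscles 2.11, 3.99 and 8.96 CPM. All 10 secretome muscles lay inside the control range, and 6 lay above the control median. The log2 fold change was -0.33 ± 0.34 (edgeR, adjusted p = 0.664). Control replicate 9, at 15.2 CPM, decided this value, which was 0.0046 without it. In libraries 6 to 15 control muscles held 3.57, 4.79, 3.04, 15.2 and 7.31 CPM and secretome muscles 5.53, 2.69, 4.89, 2.87 and 2.68 CPM. The difference there was -0.85 ± 0.42 on the log2 scale (edgeR, adjusted p = 0.526), and -0.32 without control replicate 9. Between libraries 1 to 5 and 16 to 20 it was 0.30 ± 0.47, of the other sign. The difference between these contrasts, -1.16 on the log2 scale, did not pass in edgeR's interaction test (p = 0.0964, adjusted p = 0.548), a test that called 0.0553% of all genes.

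Myf6, also known as MRF4, is the myogenic factor of mature fibres and was the most abundant of the 4. Control muscles held 62.3, 110 and 251 CPM (lowest, median and highest) and secretome muscles 70.9, 109 and 148 CPM. The medians were nearly equal, and the highest control muscles, replicates 9, 3 and 1, lay above all secretome muscles. The log2 fold change was -0.25 ± 0.20 (edgeR, adjusted p = 0.551), and -0.09 without control replicate 9. Libraries 6 to 15 gave -0.35 ± 0.23 (edgeR, adjusted p = 0.617), and -0.03 without that muscle.

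Myf5 and Pax7 mark satellite cells, the former as an early myogenic factor and the latter as a factor that keeps them. Myf5 was at 0.610, 1.32 and 2.44 CPM (lowest, median and highest) in control and 0.824, 1.54 and 1.87 CPM in secretome muscles, with every secretome muscle inside the control range. Its log2 fold change was -0.05 ± 0.23 (edgeR, adjusted p = 0.933), and 0.07 ± 0.33 within libraries 6 to 15. Pax7 was at 1.26, 1.71 and 3.57 CPM in control and 1.09, 1.63 and 2.87 CPM in secretome muscles. Here 7 of 10 secretome muscles lay below the control median, and the groups overlapped over most of their ranges. The log2 fold change of Pax7 was -0.17 ± 0.22, with a 95% interval of -0.61 to 0.28 (edgeR, adjusted p = 0.730). It was -0.03 without control replicate 5, the highest control, and -0.27 without secretome replicate 10. Libraries 6 to 15 gave 0.12 ± 0.22 (adjusted p = 0.864). The 95% intervals of Myf5 (-0.52 to 0.43) and Pax7 over all muscles cover differences of either sign. They are not limits of detection, since calls were made at a 5% false discovery rate over all genes.

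The wider list of 24 satellite cell genes, which holds Pax7 and Myf5, was described by its counts. Of 23 tested, 5 had a positive and 18 a negative log2 fold change, with a median of -0.19. None passed edgeR's false discovery rate, and 0 positive and 3 negative values had an unadjusted p under 0.05, against 6.52% and 9.21% of all genes in those directions. Within libraries 6 to 15 the list had 7 positive and 16 negative values (median -0.09), of which 1 and 5 had an unadjusted p under 0.05, against 5.02% and 4.92% of all genes. The smallest p belonged to Sdc3, the heparan sulfate proteoglycan syndecan 3. Sdc3 was at 16.7 ± 4.48 CPM in control and 12.1 ± 1.54 CPM in secretome muscles (SD, n = 10 each), with all 10 secretome muscles below the control median. The share of all genes with such a split was not counted. The log2 fold change of Sdc3 was -0.46 ± 0.12 (edgeR, adjusted p = 0.134), and DESeq2 called this gene, with an adjusted p just under 0.05. Vcam1, an adhesion molecule of satellite cells and of activated endothelium, was at 4.78 ± 1.33 and 3.29 ± 0.944 CPM, a log2 fold change of -0.54 ± 0.18 (edgeR, adjusted p = 0.189; DESeq2, adjusted p = 0.122). Within libraries 6 to 15 the differences of Sdc3 and Vcam1 were -0.40 and -0.72 on the log2 scale. Markers of other cells were examined beside them. The 11 macrophage markers tested all had negative log2 fold changes (median -0.49 on the log2 scale), and Cx3cr1 was too low to test. The summed level of all 12 was 55.9 to 186 CPM in control and 44.1 to 135 CPM in secretome muscles, and 55.9 to 137 against 44.1 to 58.6 CPM within libraries 6 to 15, with no marker at 0 in any muscle. The part of those cells in the satellite cell list was not tested.

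**Figure D3:**
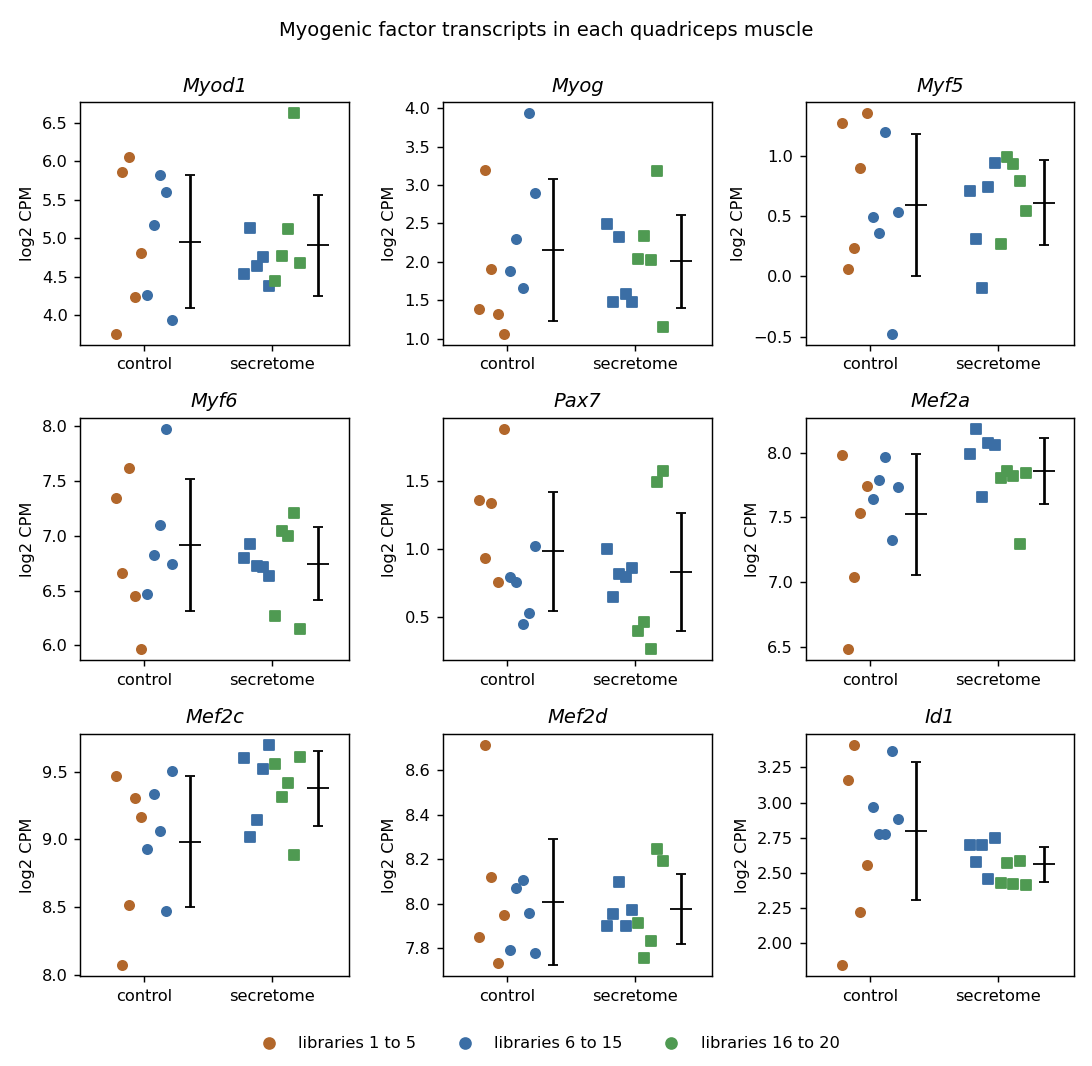
Level of each gene (log2 CPM) in each muscle, 1 point per muscle, with controls as circles and secretome muscles as squares; colour gives the range of library numbers, and the black bars are mean ± SD (n = 10 each). The groups overlap for all 9 genes; secretome replicate 9 is at 6.62 for Myod1 and control replicate 2 at 8.71 for Mef2d, and the Id1 points of the secretome group lie close together.

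Of the MEF2 factors, Mef2c had the largest log2 fold change and the smallest p of the 9 genes. Mef2c was at 268, 553 and 727 CPM (lowest, median and highest) in control and 473, 709 and 829 CPM in secretome muscles. In the secretome group 8 of 10 muscles lay above the control median and 5 above every control. The means were 529 ± 158 and 675 ± 122 CPM (SD, n = 10 each), and the log2 fold change was 0.35 ± 0.16, with a 95% interval of 0.02 to 0.68. Its unadjusted p in edgeR's quasi-likelihood test was 0.0383 and its adjusted p 0.291 (DESeq2, adjusted p = 0.240), so the difference did not pass the false discovery rate. The difference was of like size in both parts of the series, 0.33 ± 0.19 within libraries 6 to 15 (edgeR, adjusted p = 0.568; 0.21 without control replicate 9) and 0.39 ± 0.23 between libraries 1 to 5 and 16 to 20. Between libraries 1 to 5 and 16 to 20, treatment cannot be told apart from library range and Ttn share. In libraries 6 to 15 control muscles held 486, 646, 534, 355 and 727 CPM and secretome muscles 776, 518, 565, 734 and 829 CPM, and 3 of 5 secretome muscles exceeded every control there.

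Mef2a, the MEF2 member with the widest expression across tissues, was at 89.1, 206 and 253 CPM (lowest, median and highest) in control and 157, 231 and 290 CPM in secretome muscles. Here 8 of 10 secretome muscles lay above the control median and 4 above every control. The log2 fold change was 0.29 ± 0.15, with a 95% interval of -0.01 to 0.60 (edgeR, p = 0.0597, adjusted p = 0.339; DESeq2, adjusted p = 0.308). The control muscles of libraries 6 to 15 held 199, 221, 250, 160 and 212 CPM and the secretome muscles 254, 290, 202, 270 and 267 CPM. There 4 of 5 secretome muscles lay above every control, with a log2 fold change of 0.31 ± 0.13 (edgeR, p = 0.0337, adjusted p = 0.475). The lowest levels of Mef2a and Mef2c were those of control replicate 2, without which the log2 fold changes over the remaining 19 muscles were 0.21 and 0.27. That muscle also had the lowest summed level of fibre markers, 170997 CPM, and the part of fibre content in these differences was not tested.

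Mef2d, which has an isoform particular to muscle, varied least of the 9 genes, with a coefficient of variation of 17.9% over the 20 muscles. It was at 213, 248 and 420 CPM (lowest, median and highest) in control and 216, 244 and 304 CPM in secretome muscles, all of the latter inside the control range. Its log2 fold change was -0.05 ± 0.11, with a 95% interval of -0.27 to 0.17 (edgeR, adjusted p = 0.841), and 0.03 ± 0.10 within libraries 6 to 15. The reads do not resolve isoforms here, since counts are per gene.

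Of 22 listed co-regulators of MEF2 and the myogenic factors, 21 were tested (Mef2b was too low), with 15 positive and 6 negative log2 fold changes and a median of 0.08. No gene of this list passed edgeR's false discovery rate, and 2 positive and 1 negative values had an unadjusted p under 0.05, against 6.52% and 9.21% of all genes. In libraries 6 to 15 positive values were not in excess, with 10 positive and 11 negative and a median of -0.02. There 2 positive and 0 negative values had an unadjusted p under 0.05 in edgeR, against 5.02% and 4.92% of all genes. The smallest p of the list was that of Tead1, a DNA-binding factor of the Hippo pathway that acts at muscle gene promoters. Tead1 was at 309 ± 60.8 CPM in control and 427 ± 42.1 CPM in secretome muscles (SD, n = 10 each), with 10 of 10 secretome muscles above the control median. The share of all genes with such a split was not counted. The log2 fold change of Tead1 was 0.47 ± 0.11 (edgeR, adjusted p = 0.109), and DESeq2 called this gene (adjusted p = 0.0082). The log2 fold change of Tead1 in libraries 6 to 15 was 0.38 ± 0.16 (edgeR, adjusted p = 0.472). Mamstr, a coactivator of MEF2, had a log2 fold change of -0.46 ± 0.14 (edgeR, adjusted p = 0.158), and -0.13 ± 0.14 within libraries 6 to 15.

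Id1, the inhibitor, showed a narrow range after secretome. Control muscles held 3.47, 7.00 and 10.5 CPM (lowest, median and highest) and secretome muscles 5.21, 5.845 and 6.62 CPM. All 10 secretome muscles lay below the control median and all 10 lay inside the control range. The share of all genes with such a split was not counted. Egfl7, an endothelial marker, also had all 10 below (edgeR, adjusted p = 0.377), and Ttn had all 10 above (edgeR, adjusted p = 0.524). The means of Id1 were 7.18 ± 2.27 and 5.80 ± 0.525 CPM (SD, n = 10 each), with a log2 fold change of -0.31 ± 0.16 and a 95% interval of -0.63 to 0.01. The unadjusted p of edgeR's quasi-likelihood test was 0.0605 and the adjusted p 0.341 (DESeq2, adjusted p = 0.367). For Id1, control muscles of libraries 6 to 15 held 7.71, 6.73, 6.74, 10.2 and 7.25 CPM, and secretome muscles 6.38, 5.86, 6.38, 5.37 and 6.62 CPM. The groups did not overlap there, all 5 secretome muscles lying below the lowest control, as did 0.919% of all genes with the secretome group lower. The highest secretome muscle, 6.62 CPM, was close to the lowest control, 6.73 CPM, with 136 and 132 counts. The log2 fold change within these libraries was -0.32 ± 0.15 (edgeR, p = 0.0460, adjusted p = 0.498), and -0.20 without control replicate 9. The lowest values of all, 3.47 and 4.55 CPM, were in control replicates 1 and 4, outside these libraries.

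The spread of Id1 also differed between the groups. The SD of its log2 CPM was 0.49 in control and 0.13 in secretome muscles, a ratio of 3.86, which 0.677% of all genes reached or exceeded. The coefficient of variation of Id1 was 31.6% in control and 9.05% in secretome muscles, where counting error alone, taken over all muscles, gave 9.55%. The secretome spread was thus no larger than counting error, so the size of the ratio does not measure a narrowing of Id1 levels. A larger SD in control muscles was common, found for 76.4% of genes, with a median SD of 0.37 in control and 0.26 in secretome muscles. This is a description without a test, and the control group spans libraries that differ in Ttn share more than the secretome group does, 7.02 to 21.1% against 14.2 to 20.7% of counts.

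Other partners and inhibitors of the basic helix-loop-helix factors were described from a list of 22 genes that includes Id1, all tested. Of these 5 had positive and 17 negative log2 fold changes (6387 and 8084 over all genes), with a median of -0.26. None passed the false discovery rate with either tool. In edgeR 0 positive and 2 negative values had an unadjusted p under 0.05, against 6.52% and 9.21% of all genes. In libraries 6 to 15, 8 of 21 were positive and 13 negative, with a median of -0.09. There 1 positive and 1 negative value had an unadjusted p under 0.05, against 5.02% and 4.92% of all genes. The smallest unadjusted p belonged to Tcf3, which encodes the E proteins E12 and E47 that pair with the myogenic factors. Tcf3 was at 17.5 ± 4.203 CPM in control and 13.9 ± 2.02 CPM in secretome muscles (SD, n = 10 each), a log2 fold change of -0.33 ± 0.12 (edgeR, adjusted p = 0.218), and -0.15 ± 0.15 within libraries 6 to 15. Hes6, a relative of the Notch effectors that promotes differentiation, was at 5.33 ± 2.86 and 3.83 ± 0.685 CPM, a log2 fold change of -0.47 ± 0.22 (edgeR, adjusted p = 0.297), and -0.49 within libraries 6 to 15. The relatives of Id1 had values of the same sign, -0.37 for Id2, -0.33 for Id3 and -0.45 for Id4 on the log2 scale, with adjusted p of 0.562, 0.388 and 0.518 in edgeR. Their values within libraries 6 to 15 were -0.23, -0.30 and -0.24.

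Id1 is a direct target of bone morphogenetic protein (BMP) signalling through SMAD factors, and 20 genes of that pathway, Id1 included, were listed. The list mixes response genes with ligands, receptors, transducers and antagonists, so its signs do not measure the response. Of 18 tested, 5 had positive and 13 negative log2 fold changes, with a median of -0.18 and no call past the false discovery rate. The split was the same within libraries 6 to 15 (5 positive, 13 negative, median -0.12). In edgeR 3 positive and 1 negative values had an unadjusted p under 0.05, against 6.52% and 9.21% of all genes. Within libraries 6 to 15 these were 1 and 2, against 5.02% and 4.92%. Receptors and transducers had the smallest p: Bmpr2, a type II receptor, was at 215 ± 39.7 and 261 ± 34.8 CPM (control and secretome, SD, n = 10 each), a log2 fold change of 0.27 ± 0.11 (edgeR, adjusted p = 0.242), and 0.21 within libraries 6 to 15. Smad5, which carries the BMP signal, was at 51.9 ± 5.95 and 59.6 ± 7.62 CPM, a log2 fold change of 0.20 ± 0.09 (edgeR, adjusted p = 0.266), and -0.0056 within libraries 6 to 15. Id1 is also expressed by endothelium, and 10 of the 12 endothelial markers tested had negative log2 fold changes (median -0.14), as did 11 of 12 within libraries 6 to 15 (median -0.20), where Id1 did not overlap. Their summed level was 211 to 395 CPM in control and 216 to 349 CPM in secretome muscles, and within libraries 6 to 15 it was 260 to 395 and 262 to 349 CPM, with medians of 353 and 265 CPM and no marker at 0 in any muscle. The part of endothelium in the Id1 values was not tested.

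Target genes of the myogenic factors in developing or denervated muscle were listed as well, 26 in number, of which 23 were tested. Of these 5 had positive and 18 negative log2 fold changes (6387 and 8084 over all genes), with a median of -0.30. None passed the false discovery rate with either tool. In edgeR 0 positive and 2 negative values had an unadjusted p under 0.05, against 6.52% and 9.21% of all genes. The smallest p were those of the developmental myosins. Myh8, the perinatal heavy chain, was at 16.4 ± 10.98 CPM in control and 8.79 ± 2.697 CPM in secretome muscles, and 9 of 10 secretome muscles lay below the control median. Its log2 fold change was -0.90 ± 0.29 (edgeR, adjusted p = 0.181), and -0.98 ± 0.44 within libraries 6 to 15. Myh3, the embryonic heavy chain, was at 6.53 ± 7.33 and 2.30 ± 1.36 CPM, a log2 fold change of -1.50 ± 0.50 (edgeR, adjusted p = 0.189), and -2.20 ± 0.75 within libraries 6 to 15. The list as a whole had 4 positive and 19 negative values within libraries 6 to 15, with a median of -0.43. There 0 positive and 6 negative values had an unadjusted p under 0.05 in edgeR, against 5.02% and 4.92% of all genes. Fibre markers had 10 positive and 4 negative values of 14 over all muscles (median 0.09 on the log2 scale), and 6 positive and 8 negative within libraries 6 to 15 (median -0.08). Chrng, Mymk and Mymx, genes of immature or fusing muscle, were too low to test.

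Single muscles with high Myod1 were described individually, and were picked out after their values were seen. Secretome replicate 9 held 98.5 CPM (1826 counts), and the next secretome muscle 35.1 CPM. In the control group replicate 3 held 66.3, replicate 2 held 58.0, replicate 8 held 56.5 and replicate 9 held 48.6 CPM, above 36.1 CPM in the next control. High Myod1 was therefore found in 4 control muscles and 1 secretome muscle, and in that secretome muscle it stood apart from its group, with a gap to the next muscle of 0.661 of the whole range of the group on the log2 scale. Without it the log2 fold change of Myod1 was -0.43 and its adjusted p in edgeR 0.434, which remained short of the threshold.

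These muscles did not share 1 pattern in the other 8 genes. Secretome replicate 9 was also the highest secretome muscle for Myog (8.96 CPM), Myf6 (148 CPM) and Mef2d (304 CPM) and the lowest for Mef2a (157 CPM) and Mef2c (473 CPM). Pax7 was at 2.698 CPM there, second to replicate 10 at 2.87 CPM. Control replicate 2 was the lowest of all 20 muscles for Mef2a and Mef2c and the highest for Mef2d, at 420 CPM. Control replicate 9 was the highest of all for Myog (15.2 CPM) and Myf6 (251 CPM) and the lowest for Myf5 (0.610 CPM), whereas control replicate 8 was at 3.04 CPM for Myog and at 2.18 CPM for Myf5. Control replicate 3 had the highest Id1, 10.5 CPM. The summed level of 21 immediate early genes, which respond to injury and handling, was 1291 CPM in control replicate 3, 1164 CPM in secretome replicate 9, 948 CPM in control replicate 8, 772 CPM in control replicate 9 and 738 CPM in control replicate 2, against medians of 755 CPM in control and 758 CPM in secretome muscles. Neutrophil markers summed to 115 CPM in control replicate 3 and to 10.4 CPM in secretome replicate 9. The part of these in the Myod1 values was not tested.

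The genes that set secretome replicate 9 farthest above the next muscle, among 13172 genes with a mean of at least 1 CPM, were Csrp3, Otud1, Lmcd1, Twf2 and Vipr1. Csrp3, the muscle LIM protein of the Z-disc, was at 128 CPM there and 40.3 CPM in the next muscle, a gap of 1.66 on the log2 scale. Otud1, a deubiquitinase, was at 68.9 against 33.1 CPM. Lmcd1, a LIM protein of striated muscle, was at 214 against 109 CPM, Twf2, an actin-binding twinfilin, at 196 against 105 CPM, and Vipr1, a receptor for vasoactive intestinal peptide, at 2.698 against 1.42 CPM. Myod1 itself, with a gap of 0.57, ranked 23rd. This muscle was the highest of all 20 for 869 of the 13172 genes.

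**Figure D4:**
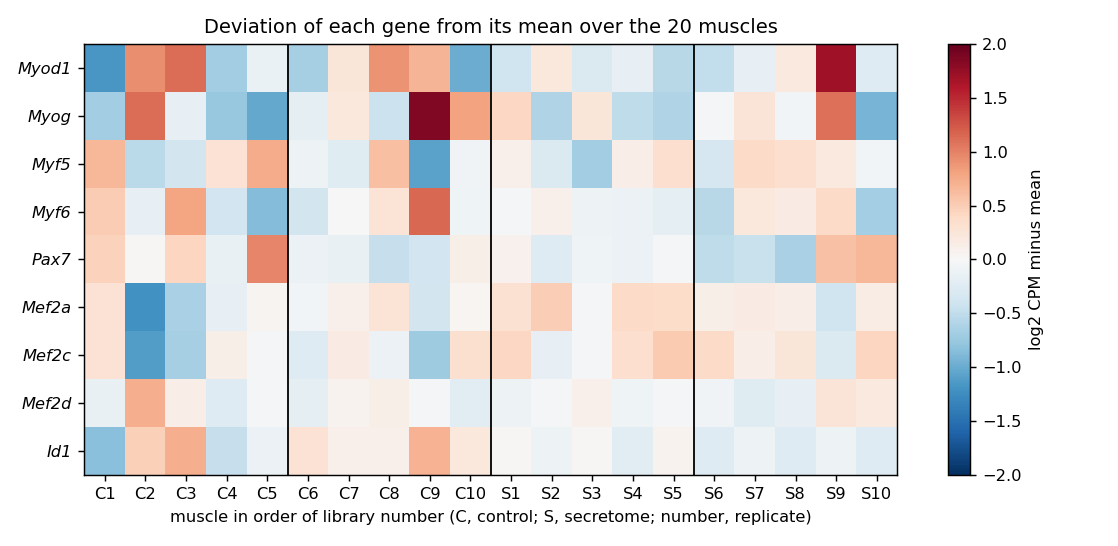
Deviation of each gene (rows) from its mean over the 20 muscles (log2 CPM minus mean, colour scale from -2 to 2) in each muscle (columns, in order of library number; C, control; S, secretome; black lines part the ranges of libraries). Dark red cells mark Myog in control replicate 9 and Myod1 in secretome replicate 9, and control replicate 2 is blue for Mef2a and Mef2c.

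How the 9 genes varied together over the 20 muscles was examined in 36 pairs, with permutation p-values adjusted over the pairs. By Pearson's r 16 pairs passed and by Spearman's rho 3 did, and 28 of 36 pairs had the same sign of r within the 10 muscles of libraries 6 to 15. The share of all gene pairs that would pass was not computed. The permutations kept neither library ranges nor treatments apart, so these counts do not show a trait particular to the 9 genes. Mef2a and Mef2c had the largest Pearson's r over the 20 muscles, 0.83 (permutation, adjusted p = 0.00108) and rho = 0.66 (adjusted p = 0.0306), n = 20. Without the 2 muscles farthest from the median of Mef2a r was 0.61, and within libraries 6 to 15 it was 0.64 (permutation, n = 10, adjusted p = 0.122). Myod1 and Mef2c were inversely related, with r = -0.68 (permutation, adjusted p = 0.0121) and rho = -0.63 (adjusted p = 0.0403). Without the 2 extreme muscles r was -0.66, and within libraries 6 to 15 it was -0.58 (permutation, n = 10, adjusted p = 0.177). Myod1 and Mef2d were positively related, with r = 0.65 (permutation, adjusted p = 0.0189), rho = 0.68 (adjusted p = 0.0306), 0.63 without the 2 extreme muscles and 0.68 within libraries 6 to 15 (permutation, n = 10, adjusted p = 0.114). None of these 3 relations passed within libraries 6 to 15, though each kept its sign there. Those 10 muscles are among the 20, so agreement in sign is not independent of the pooled values. Of the pairs that passed by Pearson's r alone, Mef2c and Id1 had r = -0.68 (rho = -0.55; permutation, adjusted p = 0.0121 and 0.0882), -0.54 without the 2 extreme muscles and -0.67 within libraries 6 to 15 (permutation, n = 10, adjusted p = 0.114). Myf5 and Id1 had r = -0.63 (rho = -0.54; permutation, adjusted p = 0.0201 and 0.0938), -0.55 without the 2 extreme muscles and -0.54 within libraries 6 to 15 (permutation, n = 10, adjusted p = 0.209). All CPM values of a muscle share its library size and scaling.

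**Figure D5:**
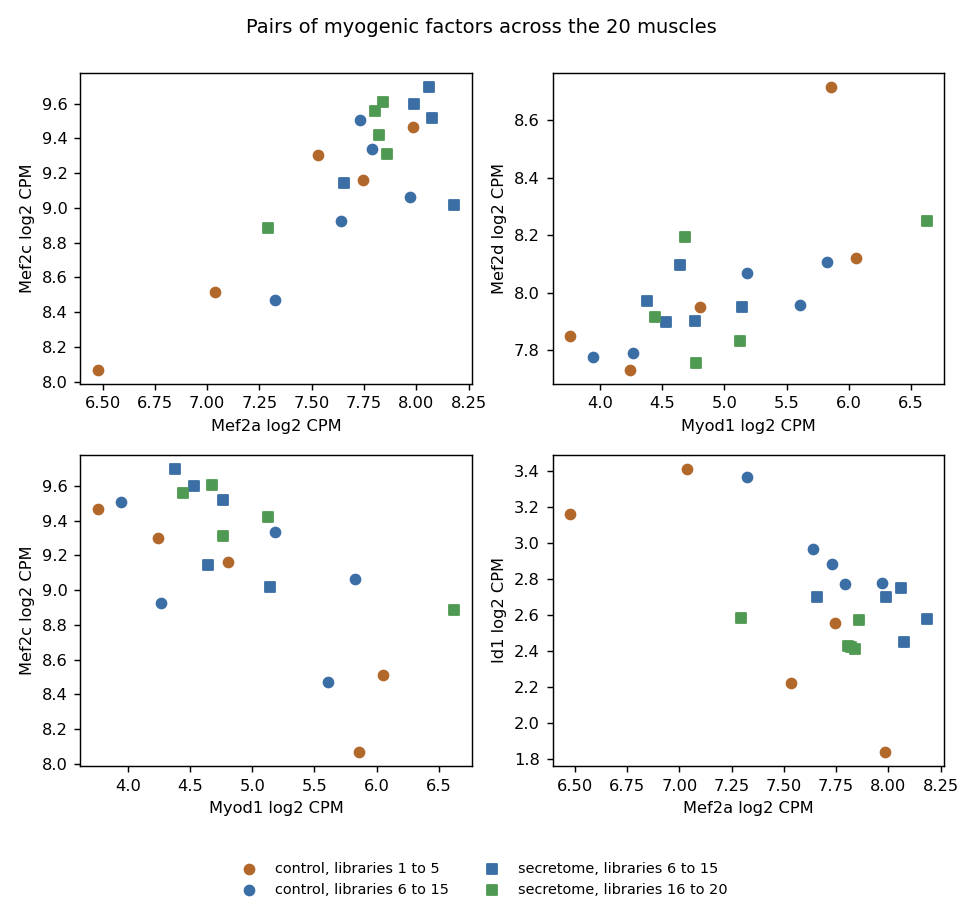
Levels (log2 CPM) of 4 pairs of genes across the 20 muscles, 1 point per muscle; circles are control and squares secretome muscles, and colour gives the range of library numbers. Mef2c runs upward with Mef2a (r = 0.83) and downward with Myod1 (r = -0.68), Mef2d runs upward with Myod1 (r = 0.65), and Id1 runs downward with Mef2a (r = -0.58), where control replicates 1 and 4 lie lowest.

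Some relations changed when muscles were left out or when libraries 6 to 15 were taken alone. Mef2a and Mef2d had r = -0.67 (rho = -0.26; permutation, adjusted p = 0.0294 and 0.388), but r was -0.16 without the 2 extreme muscles and 0.07 within libraries 6 to 15, so the relation rests on those muscles. Myod1 and Pax7 were unrelated over all muscles, with r = 0.04 (permutation, adjusted p = 0.905) and rho = -0.07 (adjusted p = 0.857). Within libraries 6 to 15 they were inversely related, with r = -0.91 (rho = -0.90; permutation, n = 10, adjusted p = 0.0115 and 0.0277), and r was -0.77 without the 2 extreme muscles there. Pax7 spans 19 to 35 counts in those muscles, and whole-muscle counts do not show which cells held Myod1 or Pax7. Id1 and Mef2a had r = -0.58 over all muscles (rho = -0.46; permutation, adjusted p = 0.0307 and 0.164) and -0.86 within libraries 6 to 15 (rho = -0.83; permutation, n = 10, adjusted p = 0.0259 and 0.0817). Myog and Mef2a had r = -0.56 over all muscles (rho = -0.44; permutation, adjusted p = 0.0366 and 0.164) and -0.83 within libraries 6 to 15 (rho = -0.73; permutation, n = 10, adjusted p = 0.0442 and 0.181). Without the 2 extreme muscles the pooled r of these pairs was -0.35 and -0.34. The values within libraries 6 to 15 hold both treatments, so the differences of Id1 and Mef2a between treatments enter them. Over the 20 muscles, with the mean of each treatment in libraries 6 to 15 and in the others subtracted, r was -0.79 for Id1 and Mef2a. For Myog and Mef2a it was also -0.79.

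The genes most like Myod1, Myog, Pax7 and Id1 across the 20 muscles were sought among 13163 genes, by Pearson's r of log2 CPM after subtracting the mean of each treatment within each library range. For Myod1 they were Usp36 (r = 0.90), a nucleolar deubiquitinase, Kdm6b (r = 0.89), a histone H3 lysine demethylase, and Smad7 (r = 0.89), an inhibitor of SMAD signalling. Without the 2 muscles extreme for Myod1 these were 0.88, 0.83 and 0.85. For Id1 they were Gprc5c (r = 0.87), an orphan receptor, Mpv17l2 (r = 0.86) and Jmjd6 (r = 0.86), and without the 2 extreme muscles 0.85, 0.82 and 0.65. For Pax7 they were Smox (r = 0.87), the spermine oxidase, Rxra (r = 0.85), a retinoid receptor and Rabl6 (r = 0.84), and without the 2 extreme muscles 0.81, 0.76 and 0.73. For these 3 the r before the group means were subtracted was 0.64, 0.40 and 0.35. For Myog they were Actr1b (r = 0.88), Phb2 (r = 0.87) and Psmd13 (r = 0.86), a dynactin, a prohibitin and a proteasome subunit. The r of the Myog genes was 0.77, 0.75 and 0.72 without the 2 extreme muscles. These are descriptions over 20 muscles, with the highest r picked from the whole table, and carry no test.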

How the data were processed

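RNA of 20 quadriceps muscles, 1 per mouse, was analysed from the deposited count table. The authors made it from stranded, ribosome-depleted total RNA libraries sequenced in pairs, and the deposited values are whole-number counts per gene without normalization. The submitters' processing notes name cutadapt 1.16, STAR 2.7.9a, featureCounts 1.6.3, DESeq2 1.34.0 and the build GRCm39. The annotation release, the strand setting of the counting and its handling of reads on several genes are not given in the sources used here. The extraction text speaks of myotubes, whereas the labelled source is quadriceps. Libraries held 13286983 to 22987237 counts, and no pair of columns was identical.

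Low counts were removed by filterByExpr (edgeR 4.0.16, R 4.3.3), and the remaining genes were scaled by TMM and compared between treatments, with no covariate, by edgeR's robust quasi-likelihood test. P-values were adjusted over all genes tested by the Benjamini-Hochberg method. Libraries 6 to 15, 5 of each treatment, were also fitted alone, and the difference of the treatment effect between these and the other libraries was tested as an interaction. Log2 CPM used a prior count of 2. Correlations used 100000 permutations. Alternatives were DESeq2 1.42.0, RLE normalization, no filter, voom with quality weights (limma 3.58.1), blocks by replicate number, a term for the 3 library ranges, permutation tests (all 252 rearrangements for 5 against 5) and leaving out each muscle in turn. On simulated counts with 200 genes changed 2-fold, edgeR recovered 161 over all 20 muscles, with 14 unchanged genes called, and 103 within libraries 6 to 15. The simulated counts held no library ranges. Their changes were larger than the largest over all 20 muscles for the genes described, a fold of 1.27 for Mef2c. Recovery of changes of that size was not simulated.

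Gene symbols and exon lengths came from GENCODE M21 (GRCm38), an older build than that of the counts, and coordinates of promoters are those of RefSeq. The 9 genes and the gene lists were chosen with earlier results of these data known. Beside the 9 genes, the text names 2 genes per list, those of smallest p, the 3 genes most like Myod1, Myog, Pax7 and Id1, and the 5 genes farthest above the next muscle in the muscle with isolated Myod1. Id2, Id3 and Id4 were named outside this rule, after their values were seen. Of 204 list genes, 1 (Cyr61) had no row under that symbol.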

Additional observations from a re-analysis of the deposited data

Results flagged for a closer look

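In each treatment group of 10 muscles, the gap of the most extreme value to its neighbour was compared with the range of the group, for 9 genes and 18 groups in all. A gap share above Dixon's critical value at 95% was reached in 2 groups. Chance gives 0.9 for genes chosen without sight of the values, which does not hold here. High Myod1 in single muscles was known when the genes were chosen, so the Myod1 value is a description and not independent of that choice. The count of 2 is therefore no test against chance. The 2 values are a Myod1 level of 6.62 log2 CPM in secretome replicate 9 (next 5.14, gap share 0.661) and a Mef2d level of 8.71 log2 CPM in control replicate 2 (next 8.12, gap share 0.605). With a prior count of 0.5 or RLE normalization the same number of groups, 2, was past the limit. Without secretome replicate 9 the log2 fold change of Myod1 was -0.43 in place of -0.09, and without control replicate 2 that of Mef2d was 0.05 in place of -0.05. The cause of either value was not tested.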

How the results depend on the processing

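The count of 0 of 9 genes past the 5% false discovery rate held under every alternative and with each muscle left out, over all muscles and within libraries 6 to 15. Mef2a, Mef2c, Myf6 and Id1 kept their direction throughout, though with voom Id1 was at -0.15 in place of -0.31, Myf6 at -0.06 in place of -0.25 and Myog at -0.08 in place of -0.33. The adjusted p over the alternatives to the fit of all muscles was 0.308 to 0.793 for Mef2a, 0.216 to 0.799 for Mef2c and 0.352 to 0.789 for Id1. Over all genes the count of 1 became 216 with DESeq2, 3 with voom and quality weights, and 0 with a term for the 3 library ranges, and 3 genes of the lists (Tead1, Sdc3 and Csf1r) passed with DESeq2 in place of 0. With the replicate number as a block the count was 0 and the log2 fold change of Myf5 was 0.0047. Same-numbered muscles had correlated deviations of -0.24 to 0.22, over 0.1 in 2 of 10 pairs, and no muscle correlated best with its own number, so they share only a number. Other values near 0 changed sign: Myod1 to 0.0695 and Mef2d to 0.0019 with voom, Myf5 to 0.0570, Pax7 to 0.10 and Mef2d to 0.0184 with the term for library ranges, Myf5 to 0.0192 as a permuted difference of mean log2 CPM, and the difference of Mef2a between library ranges to -0.00996 without the filter. The cause was not tested. Leaving out 1 muscle gave 0 to 15 genes over the whole table, 15 of them without control replicate 5 and 0 without control replicates 6 or 9 or secretome replicates 1, 4, 5, 6 or 7. It gave log2 fold changes of -0.43 to 0.0541 for Myod1, -0.51 to 0.0046 for Myog, -0.14 to 0.0547 for Myf5, -0.27 to -0.03 for Pax7 and -0.0830 to 0.0493 for Mef2d, and within libraries 6 to 15 of -0.11 to 0.31 for Myf5 and -0.0152 to 0.0750 for Mef2d. Of the values under other settings 131 stayed alike, 5 moved and 8 changed sign. Myf5 and Pax7 had 11 to 63 counts a muscle, where counting error was 20.5% and 18.1% of the mean.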

Other observations

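Other lists were described by counts only, none of them with a gene past edgeR's false discovery rate. The 12 fibro-adipogenic and fibroblast markers all had negative log2 fold changes (median -0.34), with Gsn at -0.50 ± 0.27 (adjusted p = 0.365) and Pi16 at -0.64 ± 0.37 (adjusted p = 0.399), and within libraries 6 to 15, 4 were positive and 8 negative. Their summed level was 441 to 2295 CPM in control and 617 to 1436 CPM in secretome muscles. Of the macrophage markers, Csf1r, the receptor of colony stimulating factor 1, was at 19.98 ± 7.23 CPM in control and 11.8 ± 4.39 CPM in secretome muscles (SD, n = 10 each), a log2 fold change of -0.76 ± 0.22 (edgeR, adjusted p = 0.151; DESeq2, adjusted p = 0.0455). Adgre1, a surface receptor of mature macrophages, had a log2 fold change of -0.82 ± 0.24 (edgeR, adjusted p = 0.153). Of 9 smooth muscle and pericyte markers tested, 2 had positive and 7 negative values (median -0.24), led by Acta2 at -0.54 ± 0.17 (adjusted p = 0.166) and Tagln at -0.40 ± 0.14 (adjusted p = 0.204). Of the endothelial markers, Egfl7 had -0.31 ± 0.17 (adjusted p = 0.377) and Tek -0.21 ± 0.13 (adjusted p = 0.430). Of 20 immediate early genes tested, 11 had positive and 9 negative values, with Nr4a3 at 0.44 ± 0.28 (adjusted p = 0.448) and Ier2 at -0.44 ± 0.32 (adjusted p = 0.506). Of 7 neutrophil markers tested, 4 had positive and 3 negative values, with S100a9 at 1.37 ± 0.87 (adjusted p = 0.446) and S100a8 at 1.33 ± 0.86 (adjusted p = 0.454). Among fibre markers, Pvalb, the calcium buffer of fast fibres, had -0.55 ± 0.24 (adjusted p = 0.284) and Myh4, the fastest heavy chain, 0.35 ± 0.17 (adjusted p = 0.323), and within libraries 6 to 15 they had 0.08 and 0.05. All values are log2 fold changes with SE from edgeR's quasi-likelihood test over 20 muscles.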
